A study of Mus musculus with 10 samples.

Results

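The 8 genes described here (Msln, Upk3b, Upk1b, Lrrn4, Gpm6a, Wt1, Muc16 and Bnc1) mark the mesothelium, the flat epithelial sheet that covers the lung as visceral pleura. They were looked up by symbol among the 33347 mouse genes of the count table, and each was found once. They were picked partly because earlier results of these data placed several of them higher in recipients of ALDHbr cells, so their difference between the groups is given as a description, with no test. The 10 libraries came from lung tissue of wild-type mice that had received bleomycin, which breaks DNA and whose injury leads to fibrosis. In 5 of them the mice had been injected with bone marrow cells of high aldehyde dehydrogenase activity (ALDHbr), and in the other 5 with bone marrow cells of low activity (ALDHdim). All groups thus share the wild-type genotype, the bleomycin and a transfer of marrow cells, and levels can be read only as transfer group against transfer group. The sources used here give no strain, age, sex or time after bleomycin and do not say whether each sample came from a separate animal, so errors measure the spread between these samples, which may be technical.

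Mesothelial cells secrete lubricating fluid and hyaluronan, carry a coat of surface glycoproteins and mucins, and rest on a thin layer of subpleural connective tissue. The transcription factor Wt1 marks them from development on, and after injury they can take part in repair and deposit matrix. The same genes mark the mesothelium of the peritoneum and the outer layer of the heart, so they do not tell one serous surface from another. In bulk tissue a lower level can come from fewer mesothelial cells or from less RNA per cell, and these cannot be told apart here.

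Library totals ranged from 588063 to 2002947 counts, with the fewest in ALDHbr 2 and the most in ALDHdim 2. The 8 mesothelial genes together held 152 to 445 counts per library, so each value rests on few reads. Libraries ALDHbr 3 and ALDHbr 5 stood apart, with 22833 and 21580 genes detected when all libraries were thinned to 588063 counts, against 16255 to 18125 in the other libraries. Results that rest mainly on these libraries are given with and without them. In every pair, libraries differed by more than sampling noise (chi-square divided by its degrees of freedom was at least 2.4). Levels are CPM, a gene's counts scaled to a common library total, after TMM scaling, a correction for library composition. BRB-seq reads start near the 3' end of the RNA, so a count does not grow with transcript length.

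On GRCm38, Msln lies on chromosome 17 from 25748613 to 25754378, Upk3b on chromosome 5 from 136038496 to 136046487, and Upk1b on chromosome 16 from 38773184 to 38800328. Lrrn4 lies on chromosome 2 from 132868305 to 132880891, Gpm6a on chromosome 8 from 54954843 to 55060871, and Wt1 on chromosome 2 from 105126529 to 105173616. Muc16 lies on chromosome 9 from 18495455 to 18674530 and Bnc1 on chromosome 7 from 81966672 to 81992292. Positions span the whole gene. Other annotated genes overlap 3 members: Gpm6a (5 unconfirmed transcripts on its own strand), Muc16 (a small RNA on the other strand) and Bnc1 (a pseudogene on the other strand). Reads of such partners may be held in a member's count. Whether counting used strand is not given, and for Gpm6a, whose partners share its strand, strand would not separate them. Upk3bl, the near relative of Upk3b, had 7 counts in all 10 libraries together, against 519 for Upk3b.

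The stretches upstream of the start sites of Upk3b, Lrrn4 and Gpm6a are shown because these genes moved together across the libraries, as described below. Each is the 250 bases before an annotated start, from RefSeq promoters on GRCm38.p6, written 5' to 3' on the gene's strand. Capitals mark GGAATG or its reverse complement CATTCC, the core letters bound by TEAD factors, which act with YAP and TAZ. Upk3b is taken from chr5:136038246-136038495 on the plus strand, Lrrn4 from chr2:132880863-132881112 on the minus strand, and the start sites of Gpm6a from chr8:54779184-54779433 and chr8:54954478-54954727 on the plus strand. Both Gpm6a starts lie before the gene span given above, and reads from 3' ends do not show which start was used.
Upk3b: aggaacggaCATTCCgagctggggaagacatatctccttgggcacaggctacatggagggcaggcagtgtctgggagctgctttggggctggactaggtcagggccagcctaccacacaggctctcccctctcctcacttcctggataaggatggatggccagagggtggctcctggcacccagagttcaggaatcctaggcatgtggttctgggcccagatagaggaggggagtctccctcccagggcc
Lrrn4: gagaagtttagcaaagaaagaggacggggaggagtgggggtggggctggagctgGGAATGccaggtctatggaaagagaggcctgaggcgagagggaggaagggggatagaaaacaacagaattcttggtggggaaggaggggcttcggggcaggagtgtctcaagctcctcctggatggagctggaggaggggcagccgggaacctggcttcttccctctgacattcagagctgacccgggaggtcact
Gpm6a upstream start: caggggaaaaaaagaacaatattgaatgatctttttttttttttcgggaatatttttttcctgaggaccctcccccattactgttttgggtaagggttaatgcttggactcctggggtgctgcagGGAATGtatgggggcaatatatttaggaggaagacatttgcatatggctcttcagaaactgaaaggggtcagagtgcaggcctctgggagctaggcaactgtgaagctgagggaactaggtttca
Gpm6a downstream start: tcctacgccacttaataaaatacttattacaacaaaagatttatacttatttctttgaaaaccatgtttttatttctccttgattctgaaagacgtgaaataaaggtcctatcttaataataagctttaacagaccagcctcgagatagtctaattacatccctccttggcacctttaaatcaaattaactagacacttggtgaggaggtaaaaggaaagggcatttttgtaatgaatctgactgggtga
The Upk3b window held 1 match on the opposite strand, starting 241 bases before the start site. Lrrn4 held 1 match on its own strand at 196 bases, and the upstream start of Gpm6a 1 match at 125 bases. No match lay in the downstream Gpm6a window or in those of Muc16 and Bnc1. For 5 of the 8 members a window was at hand, and for Msln, Upk1b and Wt1 there was none. Upk1b, which also moved with Upk3b, Lrrn4 and Gpm6a, was thus not examined. Of all 32851 promoter windows of this length, 12.6% held GGAATG on either strand, so a match is a description of the letters and no sign that a factor binds. GCGTGGGAG, a sequence bound by WT1, was in 0.405% of all windows and in none of these. The Bnc1 window had a GC content of 83.6%, against 60.8% for Upk3b, 59.2% for Lrrn4, 46.4% for Muc16, and 44.4% and 33.6% for the Gpm6a windows.

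**Figure D1:**
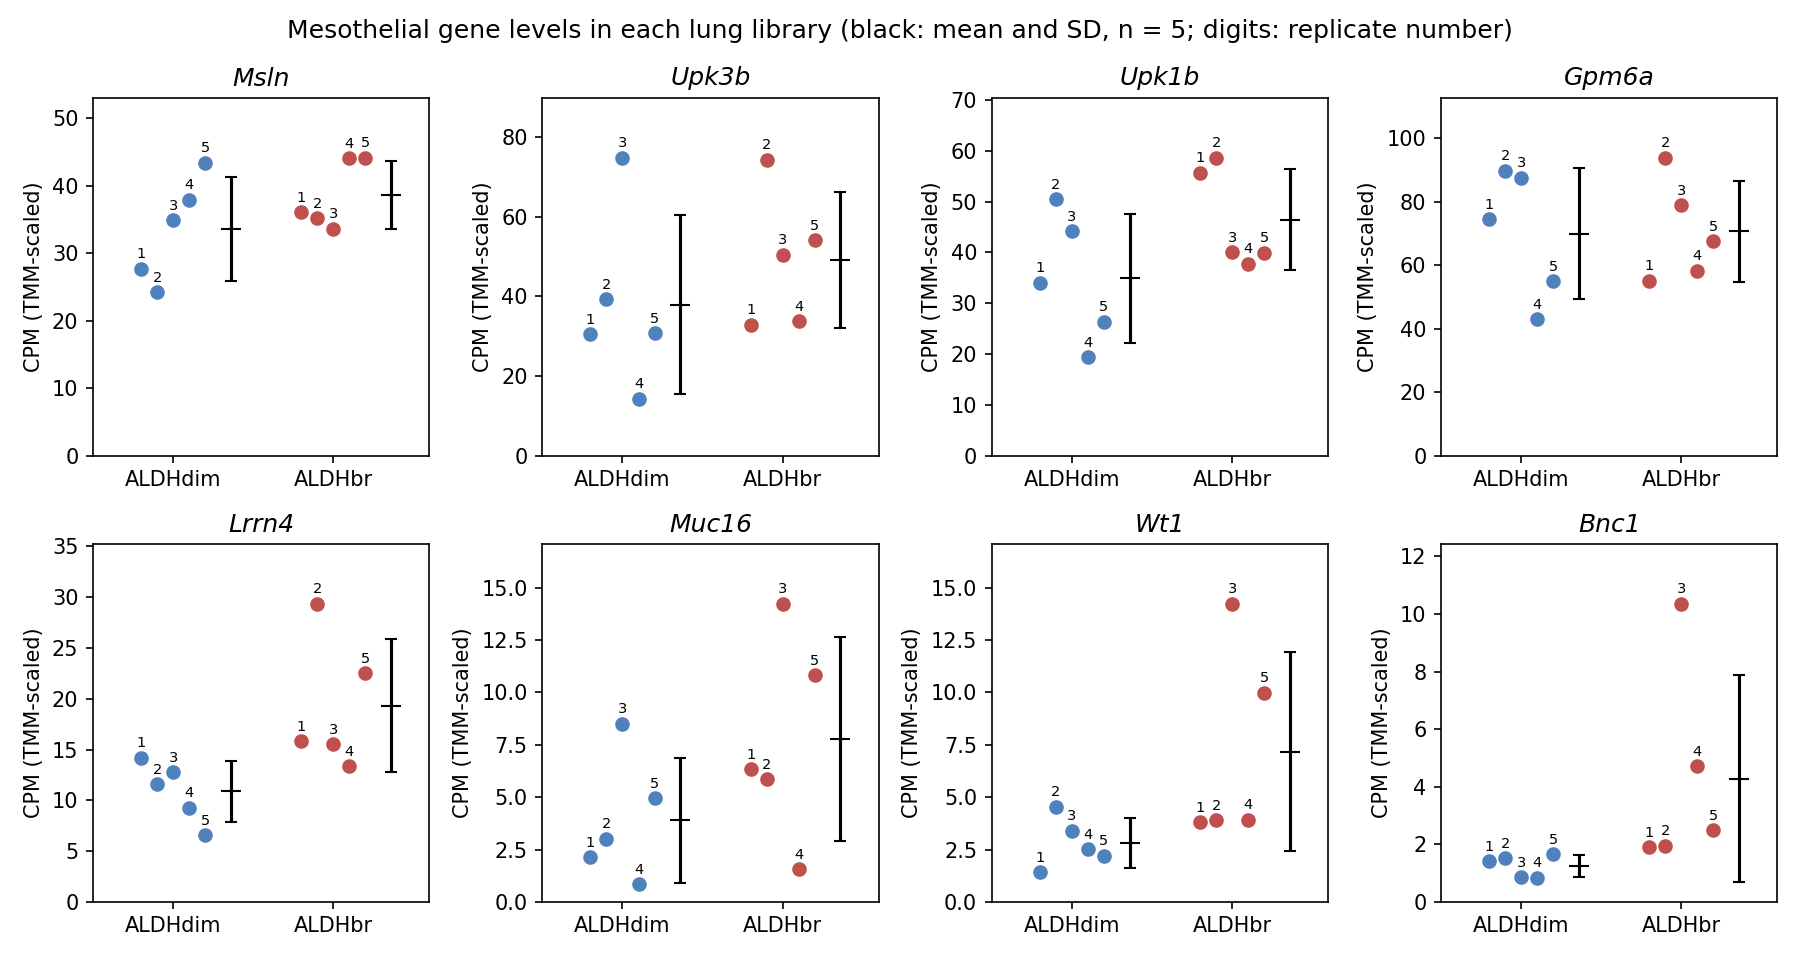
Level of each of the 8 genes in every library, in CPM on a linear axis from 0, with ALDHdim in blue and ALDHbr in red, the replicate number above each point, and the mean and SD of 5 libraries in black. The groups overlap in each gene but Bnc1, and ALDHdim 4 is lowest for Upk3b, Upk1b and Gpm6a. That library is also lowest for Muc16 and Bnc1, with 1 count each.

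Msln, a surface glycoprotein named for the tissue, varied little. It encodes mesothelin, a protein anchored to the cell surface by a lipid tail, which binds the mucin Muc16. The gene stood at 27.7, 24.2, 34.9, 37.9 and 43.4 CPM in ALDHdim libraries 1 to 5 and at 36.1, 35.2, 33.6, 44.1 and 44.2 CPM in ALDHbr libraries 1 to 5. The groups overlapped, and the lower end was held by ALDHdim 1 and ALDHdim 2. Means were 33.6 ± 7.73 and 38.6 ± 5.07 CPM (SD, n = 5 each), a log2 fold change, ALDHbr over ALDHdim, of 0.22 (95% interval −0.17 to 0.61), or 0.11 without ALDHdim 2 and 0.34 without ALDHdim 5. Msln was the steadiest of the 8, with a coefficient of variation of 18.6% over the 10 libraries, where counting error alone at its mean count gives 14.7%.

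Muc16 encodes the large membrane mucin also known as the tumour antigen CA125. It had 3, 6, 10, 1 and 9 counts in ALDHdim 1 to 5 and 10, 3, 11, 2 and 13 counts in ALDHbr 1 to 5. Its level was 2.13, 3.03, 8.51, 0.84 and 4.94 CPM in the former and 6.33, 5.87, 14.2, 1.57 and 10.8 CPM in the latter. The groups overlapped, and the highest values were in ALDHbr 3 and ALDHbr 5, the libraries with many detected genes.

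Uroplakins, named for the plaques they form on the urothelium of the bladder, are also made by mesothelium. Upk3b, which spans the membrane once, showed the widest spread of the members with enough counts to be tested, at 5.23-fold from lowest to highest library. Upk3b was at 30.5, 39.3, 74.9, 14.3 and 30.8 CPM in ALDHdim 1 to 5 and at 32.9, 74.3, 50.5, 33.8 and 54.1 CPM in ALDHbr 1 to 5. ALDHdim 4 was lowest and ALDHdim 3 highest, so a single group held both ends and the groups overlapped. Means were 38.0 ± 22.5 and 49.1 ± 17.0 CPM, a log2 fold change of 0.32 (95% interval −0.46 to 1.10). That value was 0.68 without ALDHdim 3 and 0.13 without ALDHdim 4.

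Upk1b is a tetraspanin, crossing the membrane several times. It was at 34.1, 50.4, 44.2, 19.4 and 26.4 CPM in ALDHdim 1 to 5 and at 55.7, 58.7, 40.1, 37.8 and 40.0 CPM in ALDHbr 1 to 5. ALDHdim 4 was again lowest, ALDHbr 1 and ALDHbr 2 were highest, and the groups overlapped. The means of 34.9 ± 12.7 and 46.5 ± 9.92 CPM gave a log2 fold change of 0.38 (95% interval −0.11 to 0.88), or 0.24 without ALDHdim 4.

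Lrrn4, a membrane protein with leucine-rich repeats, had the largest estimate among the tested members. It was at 14.2, 11.6, 12.8, 9.26 and 6.59 CPM in ALDHdim 1 to 5 and at 15.8, 29.3, 15.5, 13.4 and 22.5 CPM in ALDHbr 1 to 5. Of the ALDHbr libraries, 4 lay above every ALDHdim library, and ALDHbr 4 fell below ALDHdim 1. Means were 10.9 ± 3.0 and 19.3 ± 6.56 CPM, a log2 fold change of 0.77 (95% interval 0.19 to 1.35), from 177 counts in all. Leaving out each library in turn gave 0.62 to 0.89. The members were picked partly on this contrast, so the interval and this range describe the difference and do not test it.

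Gpm6a, a membrane glycoprotein of the proteolipid family best known from neuronal outgrowth, had the most counts of the members, 888 in all. It was at 74.5, 89.8, 87.6, 42.9 and 54.9 CPM in ALDHdim 1 to 5 and at 55.1, 93.9, 78.9, 58.2 and 67.5 CPM in ALDHbr 1 to 5. ALDHdim 4 was lowest and ALDHbr 2 highest. The group means were close, at 70.0 ± 20.5 and 70.7 ± 15.9 CPM, with a log2 fold change of −0.03 (95% interval −0.46 to 0.41).

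The transcription factors were scarce. Wt1, a zinc finger protein needed for the development of mesothelium and kidney, had 2, 9, 4, 3 and 4 counts in ALDHdim 1 to 5 and 6, 2, 11, 5 and 12 counts in ALDHbr 1 to 5. Its level was 1.42, 4.54, 3.40, 2.53 and 2.2 CPM in the former and 3.80, 3.91, 14.2, 3.93 and 10.0 CPM in the latter. The highest values were in ALDHbr 3 and ALDHbr 5, and the other ALDHbr libraries lay below ALDHdim 2. Bnc1, a zinc finger protein also found in keratinocytes and germ cells, had 2, 3, 1, 1 and 3 counts in ALDHdim 1 to 5 and 3, 1, 8, 6 and 3 counts in ALDHbr 1 to 5. Its levels, 1.42, 1.51, 0.85, 0.84 and 1.65 CPM against 1.90, 1.96, 10.3, 4.72 and 2.50 CPM, did not overlap. The same was so, with ALDHbr higher, for 0.531% of other genes of similarly few counts and 0.249% of the genes past the count filter. The separation rests on single counts: ALDHbr 2 reached 1.96 CPM with 1 count.

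Wt1, Muc16 and Bnc1 were below the count filter and were not tested, and they are read beside other genes of equally few counts. The 2448 other genes below the filter with 31 to 68 counts in all had a median ratio of mean CPM, ALDHbr over ALDHdim, of 1.29 (quartiles 0.94 and 1.98). Of these genes 70.2% had the higher mean in ALDHbr and 0.531% did not overlap, with ALDHbr higher. The ratio was 2.55 for Wt1, 2.0 for Muc16 and 3.41 for Bnc1. Without ALDHbr 3 and ALDHbr 5 it was 1.38, 1.18 and 2.28, and the median over the 2448 genes was 1.01. All 5 ALDHdim libraries were kept in these ratios. For Muc16 the highest of them bore the same numbers, ALDHdim 3 (8.51 CPM) and ALDHdim 5 (4.94 CPM). Of the counts of Wt1, 39.7% lay in ALDHbr 3 and ALDHbr 5, of Muc16 35.3% and of Bnc1 35.5%, against 16.1% of all counts in the table and a median of 21.2% over the 2448 genes.

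Across the members, 5 of 8 passed the count filter, and 4 of these had estimates above 0 and 1 below, with a median log2 fold change of 0.32. Over all 10844 genes tested, 51.9% had estimates above 0 and the median was 0.01. At an adjusted p under 0.05 (edgeR's quasi-likelihood test, Benjamini-Hochberg) 0 genes of the table were called (0%). In the same test 402 genes (3.71%) had an unadjusted p under 0.05. DESeq2, run on 33347 genes without that count filter, and limma-voom, run on the 10844 genes, also called 0. They had 1465 and 690 genes at an unadjusted p under 0.05. In edgeR without the count filter 185 genes were called (0.555%), and 0 of the 8 members were among them. The members were picked partly on this contrast, and nothing is read from their count. Without both ALDHbr 3 and ALDHbr 5 the median of the 5 tested members was 0.21.

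**Figure D2:**
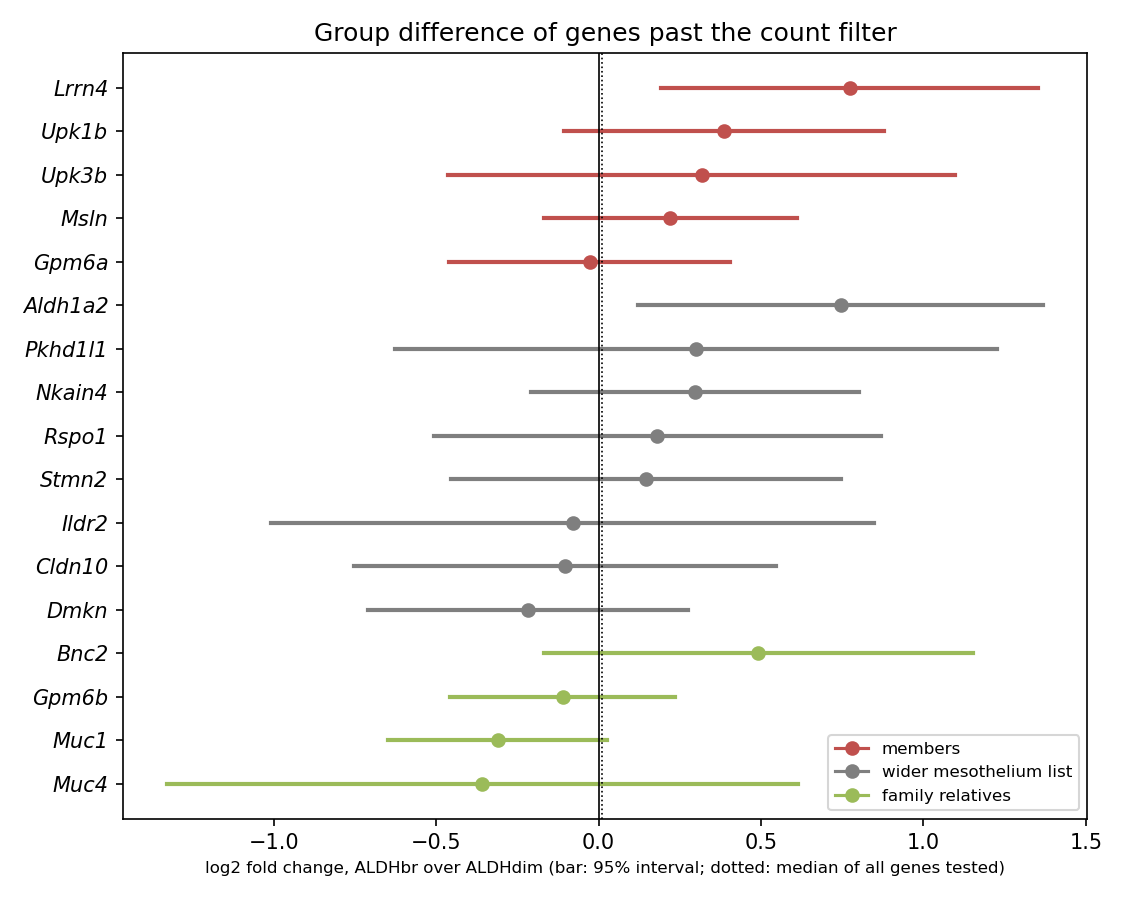
Log2 fold change, ALDHbr over ALDHdim, with its 95% interval for the 5 members, 8 further mesothelial genes and 4 family relatives that passed the count filter. The members' points run from −0.03 (Gpm6a) to 0.77 (Lrrn4), and those of the further mesothelial genes from −0.22 (Dmkn) to 0.75 (Aldh1a2); the members, picked partly on this contrast, are shown as a description.

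Of the members' levels, the variation between libraries was shared by Upk3b, Upk1b, Lrrn4 and Gpm6a and not by Msln. Over the 10 libraries the pairwise Pearson r of log2 CPM among these 4 genes ranged from 0.52 to 0.83, with a median of 0.70. With the group means subtracted the median was 0.69, and it was 0.72 after thinning all libraries to equal depth. Without ALDHdim 4, where all 4 were low, it was 0.54. The 4 genes were chosen after seeing the data, so high values among them are partly built in. Over all 5 tested members the median r was 0.58, or 0.50 at equal depth and 0.45 with Spearman's correlation. Against the mean of the other tested members, r was 0.86 for Upk3b, 0.76 for Upk1b, 0.70 for Lrrn4 and 0.69 for Gpm6a, but −0.22 for Msln. The values of r between Msln and these 4 genes ran from −0.56 to −0.02. With group means subtracted they ran from −0.67 to −0.24. In ALDHdim 4, for example, Upk3b reached 14.3 CPM and Msln 37.9 CPM, while in ALDHdim 2 Upk3b reached 39.3 CPM and Msln 24.2 CPM. The points share library, depth and scaling, and Msln varied little beyond counting error, so these correlations are descriptions. Muc16, from few counts, had an r of 0.74 with Upk3b, or 0.78 without both ALDHbr 3 and ALDHbr 5. Wt1 had an r of 0.74 with Bnc1 and 0.71 with Muc16, and all 3 genes were highest in ALDHbr 3. Without both ALDHbr 3 and ALDHbr 5 these values were 0.35 and 0.29.

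**Figure D3:**
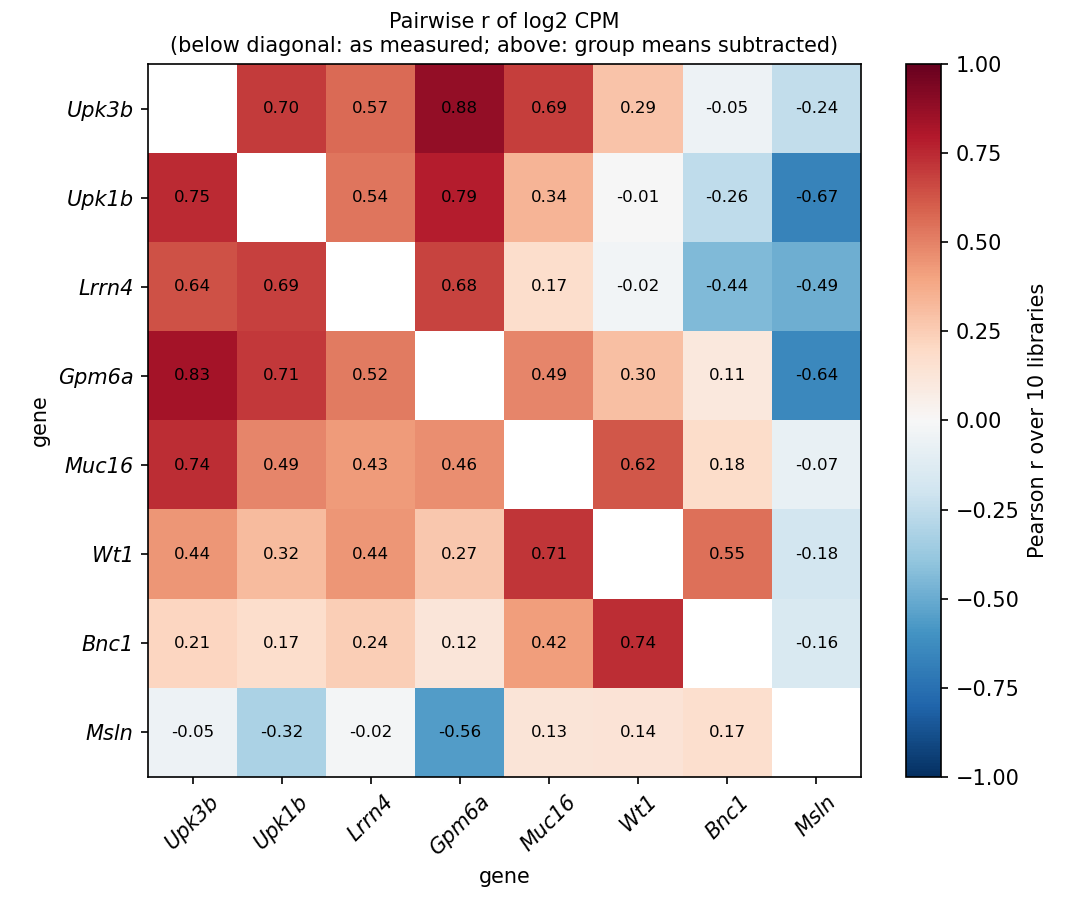
Pearson r between the log2 CPM of each pair of the 8 genes over the 10 libraries, below the diagonal as measured and above it with group means subtracted. Upk3b, Upk1b, Lrrn4 and Gpm6a form a block from 0.52 to 0.88, whereas Msln has values at or below 0.17 with every other member.

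A list of 14 further mesothelial genes, none of them a member, was examined beside the members. All 14 had counts, 8 passed the filter, 5 of these had higher and 3 had lower estimates in ALDHbr, 0 passed the threshold, and their median log2 fold change was 0.16. That median was −0.02 without ALDHbr 3 and 0.34 without ALDHdim 3. Aldh1a2, the retinaldehyde dehydrogenase that makes retinoic acid, was at 24.1, 12.1, 24.7, 10.9 and 15.9 CPM in ALDHdim 1 to 5 and at 15.8, 46.9, 36.2, 24.4 and 31.7 CPM in ALDHbr 1 to 5. The groups overlapped through ALDHbr 1 and ALDHbr 4, and the log2 fold change was 0.75 (SE 0.29, edgeR adjusted p = 0.999). It was 0.57 without both ALDHbr 3 and ALDHbr 5. Nkain4, which interacts with the sodium pump, differed by 0.30 (SE 0.24), Rspo1, a secreted enhancer of Wnt signalling, by 0.18 (SE 0.32), and Stmn2, a microtubule regulator, by 0.15 (SE 0.28). The tight junction protein Cldn10 differed by −0.10 (SE 0.30), Pkhd1l1 by 0.30 (SE 0.43) or by −0.20 without ALDHbr 3, the secreted protein Dmkn by −0.22 (SE 0.23) and Ildr2 by −0.08 (SE 0.43). Each had an edgeR adjusted p of 0.999. Calb2 (calretinin) and the transcription factor Hand2 had 1 count each in all libraries together. Tbx18 had 14, the hyaluronan synthase Has1 33, Prg4 (lubricin) 51 and the claudin Cldn15 84.

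Several genes of the further list varied with the members across libraries. The mean centred log2 CPM of its tested genes had an r of 0.69 with that of the 5 tested members, over 10 libraries. The lowest and highest libraries of Nkain4 were ALDHdim 4 (21.9 CPM) and ALDHbr 2 (70.4 CPM), and those of Rspo1 were the same libraries (8.42 and 35.2 CPM). That order was not limited to mesothelial genes: Sftpc, a surfactant gene of alveolar type 2 cells, had the same lowest and highest libraries (14603 and 35813 CPM). Its level in ALDHdim 5 was almost as low (14604 CPM). Other surfactant genes differed in this: Sftpa1 was highest in ALDHbr 2 (8064 CPM) but lowest in ALDHdim 5 (2796 CPM). Sftpb was lowest in ALDHbr 5 (2407 CPM) and highest in ALDHdim 2 (4245 CPM). Fibroblast genes did not share a single order. The collagen gene Col1a2 was highest in ALDHdim 4 (1047 CPM) and ALDHdim 5 (1043 CPM), with 268 CPM in ALDHbr 2. Inmt, also a fibroblast gene, was highest in ALDHbr 2 (3959 CPM). With group means subtracted, r with the members' score was 0.88 for Nkain4, 0.86 for Stmn2 and 0.82 for Rspo1, but 0.11 for Pkhd1l1, −0.13 for Dmkn and −0.55 for Ildr2. Among all tested genes that were not members, the highest r by the same measure belonged to Dnajb9 (0.98), Tff2 (0.97), Zfp874a (0.96), Anapc11 (0.95), Cd200 (0.94), Mapk3 (0.93), Fmc1 (0.93) and Ctla2a (0.93). These 8 are the top of 10844 genes over 10 libraries, where values this high are picked from many. Nkain4 ranked 36, Stmn2 49 and Rspo1 88 in that order, which counts the members too.

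**Figure D4:**
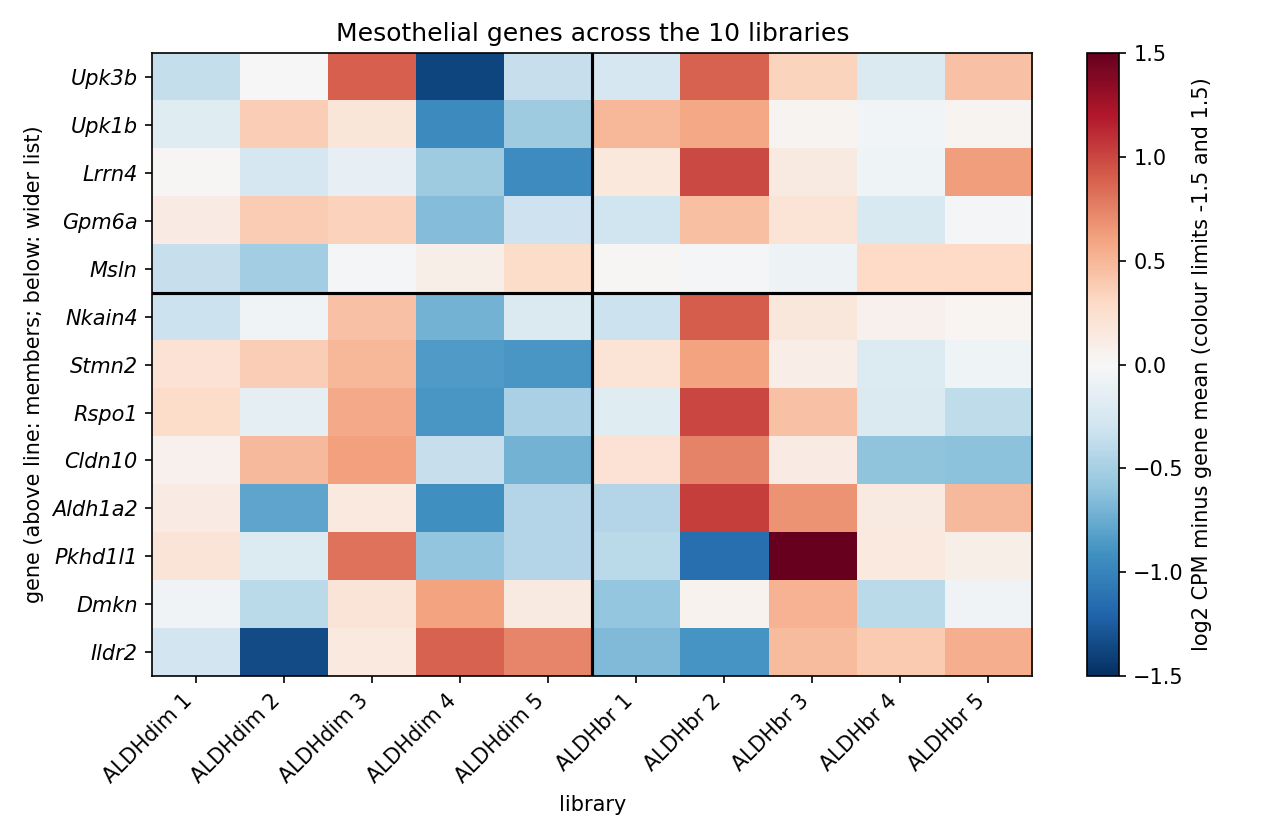
Log2 CPM minus the gene's mean over the 10 libraries, for the 5 tested members above the line and 8 further mesothelial genes below it, with ALDHdim libraries on the left. Upk3b, Nkain4, Rspo1 and Stmn2 are low in ALDHdim 4 and high in ALDHdim 3 and ALDHbr 2, and Msln does not follow them.

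Mesothelial genes that epithelium or stroma also express were split in direction. Of 14 such genes, all tested, 6 had higher and 8 had lower estimates in ALDHbr, with a median log2 fold change of −0.02 and 0 past the threshold. The keratin genes Krt7 and Krt19 differed by −0.03 (SE 0.15) and −0.15 (SE 0.14), Crip1, a small LIM-domain protein, by 0.07 (SE 0.15) and Igfbp5, a binding protein of insulin-like growth factors, by −0.23 (SE 0.18). Pdpn (podoplanin) differed by 0.17 (SE 0.14), Thbd (thrombomodulin) by 0.09 (SE 0.31), Bcam, a laminin-binding adhesion molecule, by −0.08 (SE 0.15) and C3, the central complement protein, by −0.33 (SE 0.22). Their edgeR adjusted p was 0.999 each. Their summed level was 3125 to 3520 CPM in ALDHdim and 2903 to 3857 CPM in ALDHbr, far above the 128 to 267 and 197 to 303 CPM of the 8 members.

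Relatives of the members by gene family were mostly scarce. Of 13 genes, 4 passed the filter, 1 of them with a higher and 3 with lower estimates in ALDHbr, with 0 past the threshold. Bnc2, the paralog of Bnc1, differed by 0.49 (SE 0.31) and Gpm6b, the paralog of Gpm6a, by −0.11 (SE 0.16). The epithelial mucins Muc1 and Muc4 differed by −0.31 (SE 0.16) and −0.36 (SE 0.45), each with an edgeR adjusted p of 0.999. Of the other uroplakins, Upk1a had 15 counts in all 10 libraries, Upk2 21 and Upk3a 53, against 516 for Upk1b and 519 for Upk3b. Mslnl, the relative of Msln, had 4.

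Markers of neighbouring tissues were set beside the members. The 8 cardiac muscle genes, which in mice also mark the sleeve of the pulmonary veins, summed to 250 to 408 CPM in ALDHdim and 187 to 407 CPM in ALDHbr. Of 7 tested cardiac genes 7 had lower estimates in ALDHbr and 0 passed the threshold, with a median log2 fold change of −0.43, and Nppa of the atria had 4 counts in all. The 7 adipose genes summed to 172 to 308 CPM and 82.5 to 364 CPM, with higher estimates in ALDHbr for 2 of 4 tested genes and lower for 2. Skeletal muscle genes summed to at most 19.6 CPM, and those of stratified epithelium to at most 20.3 CPM in any library. Over the 10 libraries the score of the alveolar type 1 list had an r of 0.51 with that of the members, the alveolar type 2 list 0.52, the adipose list 0.25 and the cardiac list −0.23. The part of tissue composition in the members' levels was not tested.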

How the data were processed

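RNA of 5 lung samples from the ALDHbr group and 5 from the ALDHdim group was made into BRB-seq libraries, per the labels' protocols, with a UMI of 10 nt. The authors deposited raw counts per gene, which are whole numbers that were not normalized. Tools named in the submitters' processing notes, with no role or order, are HISAT2 2.2.1 (an aligner), featureCounts 2.0.1, Trim Galore 0.6.7, UMI-tools and DESeq2, beside the builds GRCm38 and GRCh38. The sources used here do not say whether UMIs were collapsed, whether counting used strand or which annotation served. Where UMIs stayed uncollapsed, PCR copies add counts but no molecules. All 33347 identifiers were found in GENCODE mouse release 21 on the chromosome the table gives.

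Genes were kept by filterByExpr (minimum count 10), leaving 10844 genes with 97.3% of counts. After TMM scaling, edgeR 4.0.16 in R 4.3.3 gave quasi-likelihood tests (glmQLFit, robust, and glmQLFTest), and p-values were adjusted by Benjamini-Hochberg, with 0.05 as threshold. The fit was checked on simulated data. CPM used the tested genes' totals. Correlations used log2 CPM with a prior count of 2, and a list's score is the mean of this value over its tested genes, centred per gene. Alternatives were other scalings, other filters, DESeq2 1.42.0, limma-voom (limma 3.58.1), a replicate term and leaving out libraries. Named genes were all 8 members, up to 8 genes of highest mean CPM in each mesothelial list with any past the threshold, family relatives past the filter, and the 8 non-members with the highest r. Genes named beyond that rule were chosen after their values were seen. Members and lists were chosen with earlier results of these data known. Plots were drawn with matplotlib 3.10.9.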

Additional observations from a re-analysis of the deposited data

Results flagged for a closer look

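Of 38 sets of 5 values examined (levels of the 8 members and 8 further mesothelial genes, and list scores, within a group), 1 held a library far from the others by Dixon's criterion for 5 samples. Chance flags about 1 set in 20, so 1.9 would be expected. Pkhd1l1 was at 45.3 CPM in ALDHbr 3, where the other ALDHbr libraries lay between 5.87 and 16.5 CPM, a gap of 0.73 of the range. Its log2 fold change, ALDHbr over ALDHdim, was 0.30 with that library and −0.20 without it. ALDHbr 3 is also the library in which the most genes were detected at equal depth, and the part of that in this value was not tested.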

How the results depend on the processing

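The median log2 fold change of the tested members, 0.32 over 5 genes, ranged from 0.24 (without ALDHbr 2) to 0.47 (without ALDHdim 3) when each library was left out. Over 8 genes it was 0.52 in edgeR without the count filter and 0.58 in DESeq2, also without that filter. The median of all genes was then also shifted, to 0.22 and 0.28. With limma-voom the members' median was 0.38. The Gpm6a estimate, near 0, ranged from −0.15 to 0.09. The median of the further mesothelial list, 0.16, ranged from −0.02 to 0.34. The number of genes called was 0 under each alternative, each library left out included, except in edgeR without a count filter. That gave 185, 182 higher and 3 lower, where DESeq2 without that filter gave 0. The median pairwise r of the 5 tested members was 0.58, against 0.45 with Spearman's correlation, 0.50 at equal depth, and 0.43 (without ALDHbr 2) to 0.64 (without ALDHdim 3) when each library was left out; the cause was not tested. For the 4 members other than Msln, a choice made after seeing the data, it ranged from 0.54 (without ALDHdim 4) to 0.77 (without ALDHbr 1). Samples of the groups share replicate numbers. Same-numbered libraries correlated by 0.06 to 0.37 after subtracting group means, and 7 of 10 libraries correlated best with their own number. With the number as a replicate block 0 genes were called (727 at an unadjusted p under 0.05), the members' median was 0.45, and Gpm6a was at 0.03. Few counts limit Wt1, Muc16 and Bnc1 most: counting error alone at their mean counts gives a coefficient of variation of 41.5%, 38.3% and 56.8%.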

Other observations

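Over the 10 libraries the members' score had an r of 0.39 with that of the airway list, 0.30 with endothelium, 0.15 with adventitial fibroblasts, −0.36 with fibroblasts, −0.13 with smooth muscle and −0.11 with lymphatic endothelium. It was −0.45 with macrophages, −0.26 with neutrophils and −0.34 with B and plasma cells. For thymus (−0.52) and nerve and glia (−0.24) only 1 gene each was tested, and skeletal muscle and stratified epithelium had none. The 13 family relatives, 4 of them tested, had an r of −0.61, and the 14 mesothelial genes shared with epithelium or stroma 0.15. The points share library and depth, and no test was made.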
